A study of Mus musculus with 18 samples.

Results

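Ductal epithelium and mucin genes were followed across bulk RNA-seq libraries of mouse pancreatic islets. The 9 genes were Krt19, Krt7, Sox9, Cftr, Muc1, Muc6, Spp1, Tff2 and Ambp, chosen by gene symbol. All 9 were among the 53801 mouse genes listed, and all 9 were among the 18364 that passed the filter on low counts. Muc6 passed that filter through the male S64F/+ libraries, the only group in which more than 1 library held reads of it. Its values are therefore described and no test of it is read as support, and counts and medians are given for the other 8 genes.

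Whole islets were isolated from mice aged 5 weeks and fed normal chow, and every mouse was either heterozygous for the S64F change in MafA (S64F/+) or wild type (WT). MafA is a transcription factor of the beta cell that drives insulin gene expression. The groups were 4 male S64F/+, 4 male WT, 5 female S64F/+ and 5 female WT libraries, numbered as in the labels. The labels do not say that replicates are separate animals, so p-values measure the spread between these libraries. How S64F was introduced, and on which strain, is not given in the sources used here.

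Pancreatic ducts are lined by an epithelium that carries keratins and secretes a bicarbonate-rich fluid through apical ion channels. Mucins and trefoil peptides protect epithelial surfaces, and the gel-forming gastric types are normally made by glands of the stomach. Islets isolated by digestion of the pancreas carry some duct, acinar, vascular and stromal cells along with the endocrine cells. In bulk libraries, fewer cells of a type and less RNA per cell cannot be told apart.

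Library totals lay between 19.3 and 109 M counts (median 42.4 M). Mafa, whose gene carries the change, averaged 197 ± 52.3 CPM in male S64F/+ and 905 ± 80.8 CPM in male WT islets (SD, n = 4 each). It averaged 160 ± 49.8 CPM in female S64F/+ and 639 ± 117 CPM in female WT islets (SD, n = 5 each). CPM here is counts per M reads on TMM-scaled library sizes (trimmed mean of M values).

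A pair of male libraries stood apart from the rest. The summed level of 13 intestinal epithelium markers was 1110 CPM in male S64F/+ library 3 and 740 CPM in male WT library 2, against 0.162 to 8.18 CPM in the other 16 libraries. All 13 markers, which were chosen after the values had been seen, had reads in both. The same pair had the lowest summed acinar levels of their groups, 5170 CPM in the S64F/+ and 3460 CPM in the WT library. Each male genotype effect on the 9 genes is therefore given with and without both libraries, as are some of the interaction and sex results. The list counts that this changes are given too.

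The promoters of Muc6 and Spp1 are shown because these genes had the largest male fold changes of the 9. Promoter windows from RefSeq on GRCm38.p6, 250 bases upstream of a transcript start, were found for 6 of the 9 genes (Krt7, Cftr, Muc1, Muc6, Spp1 and Ambp) and numbered 7, since Spp1 has more than one start. Krt19, Sox9 and Tff2 had no entry. The Muc6 window lies at chr7:141655394-141655643 on the minus strand and the Spp1 window at chr5:104434861-104435110 on the plus strand, both written 5′ to 3′.
Muc6: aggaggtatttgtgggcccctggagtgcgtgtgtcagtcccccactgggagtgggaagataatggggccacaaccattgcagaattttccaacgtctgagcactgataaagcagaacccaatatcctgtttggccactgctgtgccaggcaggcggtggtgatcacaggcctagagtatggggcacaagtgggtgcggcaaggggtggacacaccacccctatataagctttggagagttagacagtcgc
Spp1: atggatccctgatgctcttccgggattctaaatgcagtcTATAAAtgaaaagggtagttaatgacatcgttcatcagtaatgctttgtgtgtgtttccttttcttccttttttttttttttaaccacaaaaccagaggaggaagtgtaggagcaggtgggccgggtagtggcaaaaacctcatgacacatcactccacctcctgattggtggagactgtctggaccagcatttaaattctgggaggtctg
The capitals in Spp1 mark the letters TATAAA, as found in TATA-type core promoter elements, which began 211 bases before the start. Whether they work as such an element there was not tested. Capitals are absent from the Muc6 window because none of the motifs searched was in it in its exact letters. The similar letters tatataag, which the search did not cover, stand near its 3′ end. Both strands were searched for TATAAA, for TGCTGA, the core of a MAF recognition element, and for TGANTCA, the AP-1 site. TGCTGA was in 0 of the 7 windows and in 16.1% of 32851 windows of the same length. TGANTCA was in 0 of the 7 and 6.75% of all. TATAAA was in 2 of the 7, those of Spp1 and Muc1, and 12.4% of all. These matches describe letters in these windows only.

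Levels differed widely between the genes. On the deposited FPKM scale, which divides by gene length, the mean over all 18 libraries was highest for Tff2 (71.4 FPKM), then Krt7 (22.3 FPKM), Ambp (21.5 FPKM) and Spp1 (17.4 FPKM). Krt19 (4.14 FPKM), Muc1 (3.76 FPKM) and Sox9 (1.94 FPKM) followed, and Cftr (0.0768 FPKM) and Muc6 (0.0548 FPKM) were the lowest. The ranges over libraries overlapped for Krt7, which lay between 19.3 and 24.8 FPKM, and Ambp, which lay between 12.4 and 34.5 FPKM. They overlapped likewise for Krt19 and Muc1, whose ranges were 0.753 to 20.4 FPKM and 1.36 to 10.5 FPKM. The order of such neighbours in the list is thus within their spread.

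In male islets, S64F/+ libraries had higher levels of 6 of the 8 genes other than Muc6 than WT libraries, at an adjusted p under 0.05 by edgeR's quasi-likelihood test with Benjamini-Hochberg adjustment over all genes tested. Over all genes tested 27.6% were called, 15.4% higher and 12.3% lower, and 0 of the 8 genes were called lower. Under scaling by library size alone the calls over all genes were 23.1% higher and 3.63% lower, while the same 6 genes were called higher and 0 lower. The median log2 fold change was 1.58 for the 8 genes and -0.03 for all genes tested. Without both libraries that hold intestinal genes 6 were again called, with a median of 1.77. The ranges of the groups were apart for 5 of the 8 genes in the higher direction (17.8% of all genes) and for 1, Krt7, in the lower direction (17.3% of all genes).

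In female islets, 3 of the 8 genes, Sox9, Spp1 and Ambp, were called higher in S64F/+ than in WT, against 10.2% of all genes tested, and 0 were called lower, against 11%. Calls in either direction took in 21.2% of all genes. The median log2 fold change was 0.74 for the 8 genes and 0.02 for all genes. The ranges were apart for 4 genes, those 3 and Cftr, all in the higher direction, against 5.28% of all genes, and 6.36% had ranges apart in the lower direction.

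**Figure D1:**
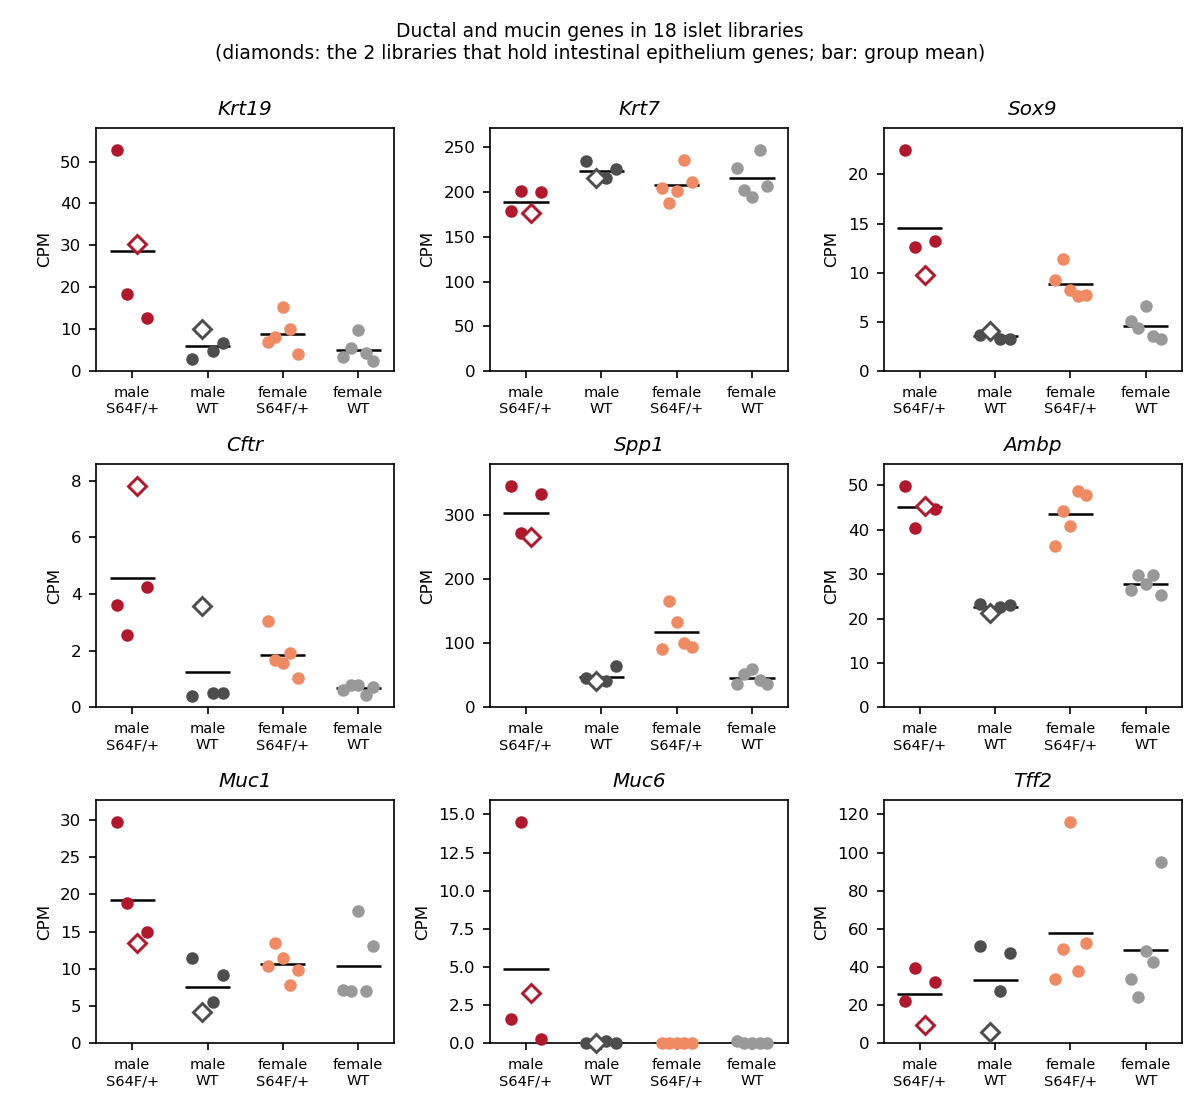
CPM of each of the 9 genes in every library, by group, on linear axes that start at 0. Points are libraries, bars are group means, and diamonds are the 2 libraries that hold intestinal epithelium genes. Spp1 lies at 266 to 346 CPM in male S64F/+ libraries, above every other library, and Krt7 lies between 177 and 247 CPM throughout.

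The ductal keratins did not move alike. Krt19, a keratin of simple epithelia that marks pancreatic duct cells, lies at 11:100140810-100148665 on the minus strand (GRCm38, as all gene positions here). It had 52.8, 18.4, 30.4 and 12.7 CPM in the male S64F/+ libraries, against 2.87, 10.1, 4.72 and 6.76 CPM in the male WT libraries. All 4 S64F/+ values stood above all 4 WT values, and S64F/+ library 1 was the highest of all 18. The log2 fold change was 2.21 ± 0.54 (SE, adjusted p = 0.00656), and it was 2.54 ± 0.64 (adjusted p = 0.012) without both libraries that hold intestinal genes. In females Krt19 had 6.93, 8.16, 15.4, 10 and 4.09 CPM in S64F/+, against 3.35, 5.49, 9.85, 4.24 and 2.39 CPM in WT. Those ranges overlapped, and the log2 fold change of 0.83 ± 0.48 did not pass (adjusted p = 0.237).

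Krt7, the other ductal keratin, lies at 15:101411043-101430313 on the plus strand and is overlapped on the opposite strand by Gm671. It had 179, 201, 177 and 200 CPM in the male S64F/+ libraries, against 234, 216, 216 and 226 CPM in the male WT libraries. Every male S64F/+ value was below every male WT value, though the log2 fold change of -0.23 ± 0.09 did not pass (adjusted p = 0.0508). It was called lower by DESeq2 (adjusted p = 0.0496) and by limma-voom (adjusted p = 0.0449). Under scaling by library size alone it was -0.01, where the median of all genes was 0.19. Without both libraries that hold intestinal genes it was -0.22 ± 0.11 (adjusted p = 0.15). In females Krt7 averaged 208 ± 18 CPM in S64F/+ and 215 ± 21.5 CPM in WT (SD, n = 5 each), with a log2 fold change of -0.05 ± 0.08 (adjusted p = 0.694) and overlapping ranges.

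Sox9, the transcription factor of pancreatic progenitors and adult duct cells, lies at 11:112782224-112787760 on the plus strand. It had 22.5, 12.6, 9.75 and 13.2 CPM in male S64F/+ libraries, against 3.65, 4.04, 3.26 and 3.31 CPM in male WT libraries. The lowest S64F/+ value was more than double the highest WT value. Its log2 fold change was 2.03 ± 0.24 (adjusted p = 8.95e-06), and 2.25 ± 0.27 (adjusted p = 2.74e-05) without both libraries. In females Sox9 had 9.25, 11.4, 8.27, 7.63 and 7.73 CPM in S64F/+, against 5.1, 4.41, 6.61, 3.55 and 3.28 CPM in WT. The female ranges were apart, and the log2 fold change was 0.95 ± 0.21 (adjusted p = 0.00354).

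Cftr, the apical chloride and bicarbonate channel of the duct, lies at 6:18170687-18322768 on the plus strand and is overlapped by Gm15595 on the same strand and Gm15592 on the other. It had 3.6, 2.56, 7.81 and 4.23 CPM in male S64F/+ libraries, against 0.387, 3.58, 0.499 and 0.494 CPM in male WT libraries. The ranges overlapped through WT library 2, and the highest value in each group was the library that holds intestinal genes. The log2 fold change was 1.81 ± 0.57 (adjusted p = 0.0246), and 2.89 ± 0.38 (adjusted p = 6.68e-05) without both of these libraries. The 3 remaining libraries of each group were then at 2.56 to 4.23 CPM in S64F/+ and 0.387 to 0.499 CPM in WT, with no overlap. Of 18 fits that each left out 1 library 14 called it, with log2 fold changes of 1.42 to 3.28. The call did not hold without S64F/+ library 3 (1.42, adjusted p = 0.0866) or without WT library 1, 3 or 4 (1.54 to 1.55, adjusted p = 0.0677 to 0.0771), and without WT library 2 the value was 3.28. Nor was Cftr called in a fit of the male libraries only (adjusted p = 0.101) or with no filter on low counts (adjusted p = 0.0581).

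In female islets Cftr had 3.06, 1.68, 1.58, 1.9 and 1.03 CPM in S64F/+, against 0.594, 0.797, 0.78, 0.426 and 0.732 CPM in WT. Every S64F/+ value was above every WT value, and the summed intestinal markers were at most 8.18 CPM in these libraries. The log2 fold change of 1.48 ± 0.52 did not pass (adjusted p = 0.0521). It was called by DESeq2 (adjusted p = 0.0153), limma-voom (adjusted p = 0.0427) and a fit of the female libraries only (adjusted p = 0.0053).

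**Figure D2:**
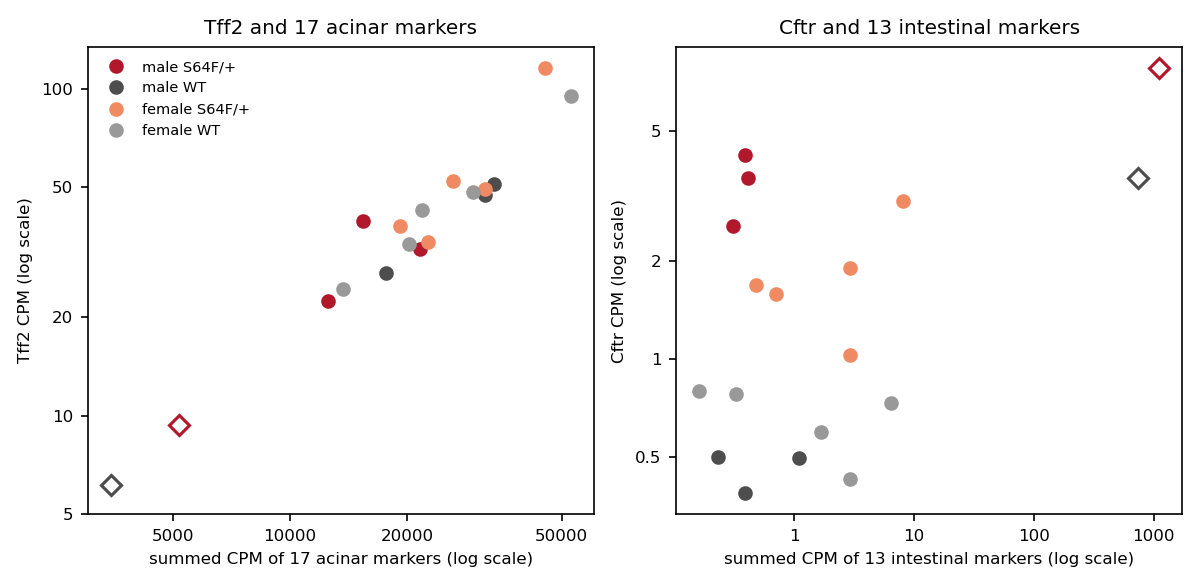
Left, Tff2 CPM against the summed CPM of 17 acinar markers, and right, Cftr CPM against the summed CPM of 13 intestinal markers, all on log axes, with 1 point per library and diamonds for the 2 libraries that hold intestinal genes. Tff2 is higher where the acinar sum is higher, over all 4 groups. The highest Cftr value of each male group is its diamond, while the other male S64F/+ libraries lie at 2.56 to 4.23 CPM with intestinal sums under 1 CPM.

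Spp1 encodes osteopontin, a secreted integrin-binding phosphoprotein that duct cells and macrophages can make. The gene lies at 5:104435118-104441050 on the plus strand, overlapped by Gm42793 on the same strand. It had 346, 272, 266 and 333 CPM in male S64F/+ libraries, against 46.2, 41, 40.5 and 63.9 CPM in male WT libraries. The groups were far apart, the lowest S64F/+ library being more than 4 times the highest WT library. In males the log2 fold change was 2.67 ± 0.22 (adjusted p = 2.86e-07), and 2.66 ± 0.26 (adjusted p = 7.96e-06) without both libraries. In females it had 91, 166, 133, 101 and 93.8 CPM in S64F/+, against 36.7, 52.3, 59.2, 42.5 and 35.7 CPM in WT. The ranges were again apart, and the log2 fold change was 1.37 ± 0.19 (adjusted p = 5.55e-05).

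Ambp encodes a precursor that is split into alpha-1-microglobulin, a small plasma protein, and bikunin, a protease inhibitor, and is made mainly in liver. It lies at 4:63143275-63154799 on the minus strand. It had 49.9, 40.3, 45.4 and 44.8 CPM in male S64F/+ libraries, against 23.3, 21.3, 22.6 and 23.1 CPM in male WT libraries. Replicates of Ambp lay close together, the SD being 3.91 CPM in male S64F/+ and 0.911 CPM in male WT islets (n = 4 each). Its male log2 fold change was 1.00 ± 0.09 (adjusted p = 6.17e-07), and 0.97 ± 0.11 (adjusted p = 2.44e-05) without both libraries. In females it had 36.4, 44.3, 40.8, 48.8 and 47.9 CPM in S64F/+, against 26.4, 29.8, 27.7, 29.9 and 25.4 CPM in WT. The female ranges were apart, with a log2 fold change of 0.65 ± 0.08 (adjusted p = 1.97e-05).

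The summed level of 14 genes of hepatocyte plasma proteins had a median of 14.6 CPM in male S64F/+, 10.7 CPM in male WT, 17.2 CPM in female S64F/+ and 9.68 CPM in female WT islets. The highest sums were 301 CPM in male S64F/+ library 3 and 238 CPM in male WT library 2, the pair that holds intestinal genes. Libraries 4 and 5 stood high in females, at 85.6 and 82.4 CPM in S64F/+ and 92.6 and 130 CPM in WT. Its 14 tested members held 0 calls in either genotype contrast by edgeR, though 3 were called higher in males with the replicate block and 1 in a fit of the male libraries only. At an unadjusted p under 0.05 there were 0 in males and 1 in females, and DESeq2 called 0 and 1 and limma-voom 0 and 0.

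The mucins Muc1 and Muc6 differed in level. Muc1, a transmembrane mucin of the apical surface, lies at 3:89229057-89233381 on the plus strand. It had 29.7, 18.8, 13.5 and 15 CPM in male S64F/+ libraries, against 11.4, 4.26, 5.52 and 9.12 CPM in male WT libraries. The ranges were apart, by a narrow margin between 13.5 and 11.4 CPM. For Muc1 the male log2 fold change was 1.36 ± 0.36 (adjusted p = 0.00957), and 1.29 ± 0.38 (adjusted p = 0.0236) without both libraries. In females it had 10.4, 13.5, 11.4, 7.86 and 9.8 CPM in S64F/+, against 7.17, 7.01, 17.7, 7.01 and 13.1 CPM in WT. These overlapped fully, with a log2 fold change of 0.03 ± 0.32 (adjusted p = 0.955, 95% interval -0.58 to 0.65).

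Muc6, a gel-forming mucin of gastric glands, lies at 7:141633456-141655319 on the minus strand and was read mainly in the male S64F/+ libraries. It had 110, 469, 162 and 11 counts there, or 1.57, 14.5, 3.28 and 0.269 CPM, against 0, 0, 5 and 0 counts in the male WT libraries. Every male S64F/+ library was above every male WT library, but S64F/+ library 2 held most of the 752 reads and the values spanned 53.9-fold. The fitted log2 fold change was 6.72 ± 1.38, and 6.32 ± 1.57 without both libraries. Leaving out 1 library at a time moved it between 5.21 and 10.78. The ratio of pooled CPM was 90.6, with an exact 95% interval of 38.6 to 280 that covers counting error only.

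In females Muc6 had 1 count in S64F/+, in library 4, and 18 counts in WT, all in library 1, which was the deepest library of the series. The other 8 female libraries were at 0. The ratio of pooled CPM was 0.08, with an exact 95% interval of 0.00192 to 0.507 for counting error only. The fitted log2 fold change was -2.78 ± 2.08.

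Tff2, a trefoil peptide secreted with gastric mucus, lies at 17:31141049-31144282 on the minus strand. It had 22.4, 39.5, 9.39 and 32.3 CPM in male S64F/+ libraries, against 51, 6.14, 27.4 and 47.4 CPM in male WT libraries. The groups overlapped, and the lowest value of each was the library that holds intestinal genes. The log2 fold change was -0.34 ± 0.62 (adjusted p = 0.728), and -0.42 ± 0.52 (adjusted p = 0.628) without both. In females it had 33.9, 49.3, 116, 38.1 and 52.4 CPM in S64F/+, against 33.6, 24.5, 48.3, 42.7 and 95.1 CPM in WT. The ranges overlapped, with a log2 fold change of 0.25 ± 0.54 (adjusted p = 0.796, 95% interval -0.82 to 1.31).

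Tff2 was called in neither genotype contrast, and its level from library to library went with the acinar markers. The 3 genes whose deviations from the group means were most like those of Tff2 over 18 libraries were Cela3b (r = 0.98), Pnlip (r = 0.97) and Aqp12 (r = 0.97). Cela3b and Pnlip encode digestive enzymes of acinar cells, and the acinar list holds both. The summed acinar markers lay at 5170 to 21600 CPM in male S64F/+, 3460 to 33600 CPM in male WT, 19200 to 45200 CPM in female S64F/+ and 13700 to 52800 CPM in female WT islets. Of 17 acinar genes tested, 0 were called in either genotype contrast by edgeR, and 1 was called lower in males without both libraries that hold intestinal genes. At an unadjusted p under 0.05 there were 0 in males and 1 in females, while DESeq2 called 0 and 1 and limma-voom 0 and 0.

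**Figure D3:**
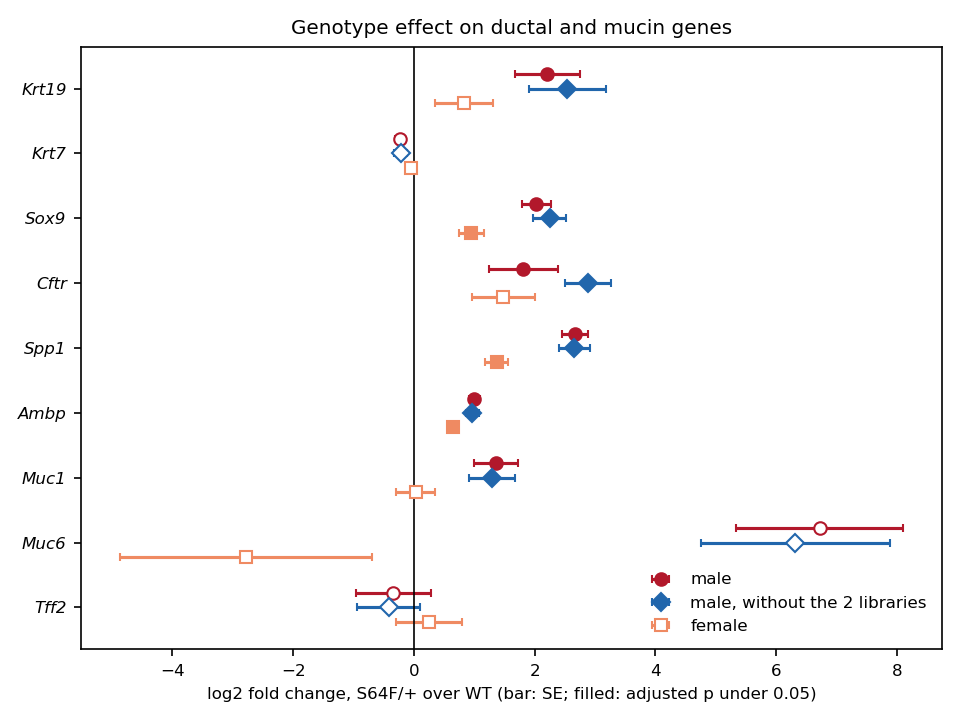
Log2 fold change of S64F/+ over WT for each gene, with its SE, in males over all libraries, in males without the 2 libraries that hold intestinal genes, and in females. Filled symbols passed an adjusted p of 0.05, and Muc6 is drawn unfilled because it entered the test through 1 group. Cftr moves most on leaving out the pair of libraries, to 2.89 against 1.81, and the female Muc6 value has the widest error.

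The difference between the male and the female genotype effect was tested as an interaction. It was called for 1 of the 8 genes, Spp1, with the larger change in males. Of all genes tested 4.47% were called, 2.87% in that direction and 1.6% in the other, or 5.61% and 0.163% under scaling by library size alone. The male effect on Spp1 exceeded the female one by 1.30 ± 0.28 on the log2 scale (adjusted p = 0.0182), and by 1.29 ± 0.31 (adjusted p = 0.0414) without both libraries. All 18 fits that each left out 1 library called Spp1. For Muc6 the fitted difference was 9.50 ± 2.39, which rests on 18 counts in 1 female WT library, and it was 5.33 without that library (adjusted p = 0.982). Without both libraries that hold intestinal genes it was 9.12 ± 2.60.

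The other 7 of the 8 genes were not called to differ between the sexes in their genotype effect. Sox9 came closest, with a difference of 1.08 ± 0.32 (adjusted p = 0.0578). It was called by DESeq2 (adjusted p = 0.0167), with library-size scaling (adjusted p = 0.0411) and without both libraries that hold intestinal genes (1.30 ± 0.33, adjusted p = 0.0447). The difference was 1.32 ± 0.48 for Muc1 (adjusted p = 0.106) and 1.38 ± 0.71 for Krt19 (adjusted p = 0.242). For Ambp it was 0.35 ± 0.12 (adjusted p = 0.0973), and 0.60 under library-size scaling (adjusted p = 0.0178), where the median of all genes was 0.25. Cftr, called in males and not in females, had a difference of 0.33 ± 0.77 (adjusted p = 0.827), or 1.41 ± 0.46 (adjusted p = 0.0913) without both libraries.

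Among S64F/+ islets, 3 of the 8 genes were called higher in males than in females, against 16.1% of all genes called, 8% higher and 8.12% lower. Under scaling by library size alone the shares over all genes were 15% and 2.04%, and Muc1 was called too (adjusted p = 0.0384). The ranges were apart for 2 of the 8, all higher in males, as for 7.91% of all genes, and 8.27% were apart in the lower direction. Spp1 was higher by 1.38 ± 0.19 on the log2 scale (adjusted p = 0.000437), with ranges apart. Muc6 had 752 counts in male S64F/+ and 1 count in female S64F/+ islets. Krt19 was higher by 1.69 ± 0.49 (adjusted p = 0.0318) and Sox9 by 0.72 ± 0.22 (adjusted p = 0.0336), with overlapping ranges. Of 18 fits that each left out 1 library, 13 called Krt19 and 13 called Sox9. The adjusted p was highest without male S64F/+ library 1 (0.119 for Krt19 and 0.172 for Sox9). With the replicate block neither was called (adjusted p = 0.0553 and 0.0587). Without both libraries that hold intestinal genes Krt19 was not called (1.66 ± 0.52, adjusted p = 0.0643) and Sox9 was (0.87 ± 0.22, adjusted p = 0.0249). Muc1 lay at 13.5 to 29.7 CPM in male and 7.86 to 13.5 CPM in female S64F/+ islets, ranges that were apart only beyond the digits shown, and its difference of 0.87 ± 0.33 did not pass (adjusted p = 0.0813).

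Among WT islets, edgeR called 0 of the 9 genes between males and females, against 2.36% of all genes called, 1.73% higher in males and 0.637% lower. At an unadjusted p under 0.05 there was 1, Ambp, and DESeq2 called that 1 (adjusted p = 0.0427) and limma-voom 0. Ambp had 21.3 to 23.3 CPM in male WT and 25.4 to 29.9 CPM in female WT islets, with the ranges apart in the lower direction, as for 3.25% of all genes. None of the 9 had ranges apart in the higher direction, which held for 4.21% of all genes. Its log2 fold change of male over female was -0.30 ± 0.09 (adjusted p = 0.0804 by edgeR). These sex comparisons share their libraries with the genotype comparisons above.

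Some marker lists of other cell types also differed between the groups, not always in both sexes, and their part in these results was not tested. Over all genes tested, 15.4% were called higher and 12.3% lower in males, and 10.2% higher and 11% lower in females. The summed stellate and fibroblast markers lay at 1650 to 2490 CPM in male S64F/+, 250 to 578 CPM in male WT, 308 to 1130 CPM in female S64F/+ and 336 to 902 CPM in female WT islets. Of 12 such genes 11 were called higher in males, or 10 without both libraries that hold intestinal genes, and 1 in females, or 0 with library-size scaling. Endothelial markers summed to 902 to 1060 CPM in male S64F/+, 456 to 620 CPM in male WT, 549 to 740 CPM in female S64F/+ and 513 to 741 CPM in female WT islets. Of 10 endothelial genes 9 were called higher in males by edgeR, or 8 without that pair of libraries. In females edgeR, DESeq2 and limma-voom each called 0, and 4 had an unadjusted p under 0.05.

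Macrophage markers summed to 277 to 390 CPM in male S64F/+, 200 to 297 CPM in male WT, 314 to 444 CPM in female S64F/+ and 220 to 270 CPM in female WT islets. Of 15 tested, 8 were called higher and 1 lower in males, and 7 higher in females. Mesothelial markers, from the lining of the pancreas, had sums of 20.7 to 66.7 CPM in male S64F/+, 155 to 221 CPM in male WT, 27.4 to 65.2 CPM in female S64F/+ and 86.7 to 228 CPM in female WT islets. Msln, which made up most of that sum, was the 1 gene of 7 tested that was called lower, in each sex, and Gpm6a the 1 called higher. The other 5 were not called, the median log2 fold change of the 7 was 0.95 in males and 1.32 in females, and Krt5 was at 0 in every library. In males 0 mesothelial genes were called higher and 1 lower without both libraries that hold intestinal genes. The 10 beta-cell markers summed to 127000 to 141000 CPM in male S64F/+, 213000 to 290000 CPM in male WT, 133000 to 245000 CPM in female S64F/+ and 168000 to 308000 CPM in female WT islets, with 9 called lower in males and 8 in females.

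The companion lists are to be read against all genes tested, of which 15.4% were called higher and 12.3% lower in males and 10.2% higher and 11% lower in females. Of 30 further duct epithelium genes tested, 17 were called higher and 2 lower in males, and 10 higher and 3 lower in females, with median log2 fold changes of 0.46 and 0.26. The male counts were 15 and 2 without both libraries that hold intestinal genes, and with library-size scaling they were 21 and 0, so the male falls named here depend on the scaling. Clu, the chaperone clusterin, averaged 449 ± 78.7 CPM in male S64F/+ and 174 ± 23.9 CPM in male WT islets (SD, n = 4 each), with a log2 fold change of 1.37 ± 0.13 in males (adjusted p = 6.36e-07) and 0.74 ± 0.11 in females (adjusted p = 0.000139). Ehf, an epithelial transcription factor, rose by 1.46 ± 0.14 in males (adjusted p = 8.01e-07) and 0.83 ± 0.12 in females (adjusted p = 0.000104). Cdh1, the epithelial adhesion protein E-cadherin that endocrine cells carry too, fell by 0.52 in males (adjusted p = 0.000405) and by 0.63 in females (adjusted p = 2.68e-05). Spint1, a membrane protease inhibitor, fell by 0.37 in males (adjusted p = 0.0194; -0.26 and adjusted p = 0.0773 in females), and Glis3, a transcription factor of ducts and beta cells, fell by 0.77 in females (adjusted p = 0.00788; -0.27 and adjusted p = 0.385 in males).

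Of the defining duct markers outside the 9 genes, Epcam, an epithelial adhesion protein, was not called in males (0.07 ± 0.09, adjusted p = 0.582) and was called higher in females (0.26 ± 0.08, adjusted p = 0.0244). The simple-epithelium keratins Krt8 and Krt18 were called higher in both sexes. Krt8 rose by 0.47 ± 0.09 in males (adjusted p = 0.00102) and 0.31 ± 0.08 in females (adjusted p = 0.0122), and Krt18 by 0.45 ± 0.10 (adjusted p = 0.00201) and 0.35 ± 0.09 (adjusted p = 0.00828).

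Of 22 tested genes of duct ion transport, 11 were called higher and 4 lower in males, and 4 higher and 3 lower in females. The medians were 1.03 and 0.17. Leaving out that pair of libraries gave 10 and 3 in males, and library-size scaling 12 and 1. Sctr, the secretin receptor, averaged 1.17 ± 0.249 CPM in male S64F/+ and 0.0979 ± 0.0291 CPM in male WT islets (SD, n = 4 each), a log2 fold change of 3.57 ± 0.40 (adjusted p = 4.48e-06), against 0.30 ± 0.31 in females (adjusted p = 0.672). Ano1, a calcium-activated chloride channel, rose by 1.46 ± 0.17 in males (adjusted p = 5.34e-06) and had 0.00 ± 0.15 in females (adjusted p = 0.988). Scnn1b and Scnn1g, subunits of the epithelial sodium channel, fell in males by 0.56 (adjusted p = 0.00173) and 0.89 (adjusted p = 0.00444), and in females by 0.59 (adjusted p = 0.00059) and 0.85 (adjusted p = 0.00368). Car4, a membrane-bound carbonic anhydrase, rose by 3.00 ± 0.35 in males (adjusted p = 9.02e-06) and 1.99 ± 0.30 in females (adjusted p = 0.000144). Fxyd2, a regulator of the sodium pump, rose by 1.27 ± 0.33 in males (adjusted p = 0.00778) and 1.32 ± 0.29 in females (adjusted p = 0.00361). F2rl1, a protease-activated receptor, fell by 0.53 in males (adjusted p = 0.0433) and by 1.21 in females (adjusted p = 6.4e-05).

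**Figure D4:**
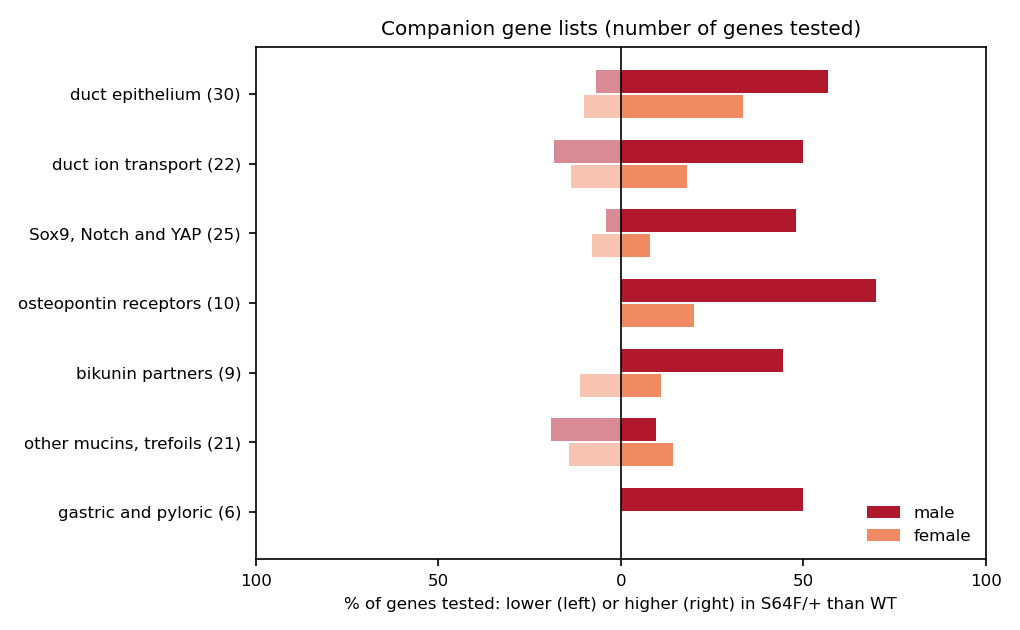
Share of the tested genes of each companion list called higher (right) or lower (left, paler) in S64F/+ than in WT, in males and in females, with the number of genes tested in brackets. Duct, Sox9 and Notch, and osteopontin receptor lists lie mostly to the right in males, while other mucins and trefoils are called 2 higher and 4 lower. The male bars of bikunin partners and of gastric and pyloric genes include Tnfaip6 and Anxa10, which entered the test through the male S64F/+ libraries.

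The wider mucin and trefoil list was called in both directions. Of 21 tested genes of 30, 2 were called higher and 4 lower in males, and 3 higher and 3 lower in females, with medians of -0.03 and 0.40, counts near the share of all genes called. The male counts were 3 and 3 without both libraries that hold intestinal genes, and 2 and 1 with library-size scaling. Muc20, a small membrane mucin, rose by 1.26 ± 0.29 in males (adjusted p = 0.00285) and 0.94 ± 0.25 in females (adjusted p = 0.0134). Muc4, a large membrane mucin, averaged 27.3 ± 4.56 CPM in male S64F/+ and 79.2 ± 13.9 CPM in male WT islets (SD, n = 4 each), and 19.1 ± 2.51 CPM in female S64F/+ and 112 ± 28.5 CPM in female WT islets (SD, n = 5 each). Its log2 fold change was -1.53 ± 0.18 in males (adjusted p = 1.2e-05) and -2.54 ± 0.17 in females (adjusted p = 4.24e-08). Galnt3, which starts O-glycan chains, rose by 0.79 ± 0.26 in males (adjusted p = 0.0266) and 0.82 ± 0.23 in females (adjusted p = 0.0164). C1galt1, which extends them, fell by 0.55 in males (adjusted p = 0.000936) and by 0.36 in females (adjusted p = 0.0137). Galnt4, of the same family as Galnt3, fell by 0.39 in males (adjusted p = 0.0164) and by 0.61 in females (adjusted p = 0.000371). C1galt1c1, the chaperone of C1galt1, rose by 0.46 ± 0.12 in females (adjusted p = 0.00775) and had -0.03 ± 0.13 in males (adjusted p = 0.886). The list summed to 797 CPM in male S64F/+ library 3 and 866 CPM in male WT library 2, the highest of their groups, whose medians were 300 and 387 CPM.

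Of the gastric and pyloric genes, 14 were listed in the tables, and 6 had enough reads to be tested. In males 3 were called higher by edgeR, 2 by DESeq2, 1 by limma-voom, and 2 without both libraries that hold intestinal genes. The sums were 3.81 to 9.27 CPM in male S64F/+, 0.442 to 1.36 CPM in male WT, 0.623 to 2.41 CPM in female S64F/+ and 0.792 to 1.78 CPM in female WT islets. Gkn2 and Tff1, which define the gastric surface, were at 0 in every library. In females edgeR and limma-voom called 0, DESeq2 1, and 2 had an unadjusted p under 0.05. Anxa10, a gastric annexin, averaged 1.47 ± 1.22 CPM in male S64F/+ and 0.0999 ± 0.0918 CPM in male WT islets (SD, n = 4 each). Like Muc6, it passed the count filter through the male S64F/+ libraries. Its male log2 fold change of 3.79 ± 0.73 is therefore described and not read as support, although the edgeR count includes it. Ctse, the protease cathepsin E, averaged 0.775 CPM in male S64F/+ and 0.158 CPM in male WT islets, with 0.271 CPM in female S64F/+ and 0.101 CPM in female WT islets. At such levels its place in the test may rest on the male S64F/+ libraries too. Its male log2 fold change of 2.30 ± 0.77 is thus not read as support either, although the edgeR count includes it. In females the log2 fold change was 2.01 ± 0.77 for Anxa10 (adjusted p = 0.0718) and 1.61 ± 0.73 for Ctse (adjusted p = 0.125).

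The list of Sox9, Notch and YAP genes held 12 called higher and 1 lower of 25 tested in males, and 2 higher and 2 lower in females, with medians of 0.52 and 0.09. Leaving out the pair of libraries that hold intestinal genes gave 11 and 1 in males. The female count, 4 of 25, was below the share of all genes called. Notch2, a receptor of the Notch pathway, averaged 20.1 ± 5.01 CPM in male S64F/+ and 6.02 ± 0.678 CPM in male WT islets (SD, n = 4 each), a log2 fold change of 1.74 ± 0.23 (adjusted p = 2.54e-05), against 0.42 ± 0.20 in females (adjusted p = 0.15). Fgfr2, a receptor of progenitor growth factors, rose by 2.65 ± 0.42 in males (adjusted p = 0.000194) and had 0.88 ± 0.36 in females (adjusted p = 0.0904). Foxa2, an endoderm transcription factor, fell in both sexes, by 0.51 in males (adjusted p = 0.000721) and 0.26 in females (adjusted p = 0.0357). Gata6, a pancreatic transcription factor, rose by 0.88 ± 0.15 in males (adjusted p = 0.000255) and 0.69 ± 0.13 in females (adjusted p = 0.00108). The Notch ligand Dll1 rose by 0.62 ± 0.16 in females (adjusted p = 0.0104; 0.11 ± 0.18 and adjusted p = 0.716 in males), and the ligand Jag2 fell by 0.51 in females (adjusted p = 0.00028; -0.17 ± 0.09 and adjusted p = 0.184 in males).

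Of 10 receptors for osteopontin, 7 were called higher in males and 2 in females, with 0 called lower in either sex, and medians of 0.83 and 0.07. In males 6 were called without the same pair of libraries, and with library-size scaling 1 was called in females. Itgb6, an integrin subunit of epithelia, averaged 3.44 ± 0.691 CPM in male S64F/+ and 0.851 ± 0.243 CPM in male WT islets (SD, n = 4 each). It rose by 2.03 ± 0.27 in males (adjusted p = 2.39e-05) and 0.79 ± 0.23 in females (adjusted p = 0.0198). Itga5, an integrin subunit that also binds fibronectin, rose by 1.39 ± 0.22 in males (adjusted p = 0.000133) and had 0.20 ± 0.19 in females (adjusted p = 0.499). Cd44, a receptor of hyaluronan as well, rose by 0.84 ± 0.14 in males (adjusted p = 0.000215) and 0.39 ± 0.12 in females (adjusted p = 0.0333). Of 9 tested partners of bikunin, the product of Ambp, 4 were called higher in males, or 3 without that pair of libraries, and 1 higher and 1 lower in females. Tnfaip6, which passes heavy chains of inter-alpha-inhibitor to hyaluronan, was low, at 1.07 ± 0.617 CPM in male S64F/+ and 0.0726 ± 0.0699 CPM in male WT islets (SD, n = 4 each). Tnfaip6 averaged 0.165 CPM in female S64F/+ and 0.0682 CPM in female WT islets, and like Muc6 it passed the count filter through the male S64F/+ libraries. Its male log2 fold change of 3.75 ± 0.73 is therefore described and not read as support, although the counts of partners called include it. Itih5, of the heavy-chain family, rose by 2.43 ± 0.53 in males (adjusted p = 0.00294). In females Tnfaip6 had 1.09 ± 0.66 (adjusted p = 0.26) and Itih5 had 0.53 ± 0.45 (adjusted p = 0.452). Has3, a hyaluronan synthase, rose by 0.64 ± 0.22 in males (adjusted p = 0.0393) and 0.68 ± 0.20 in females (adjusted p = 0.0189). Furin, a proprotein protease, fell by 0.25 in females (adjusted p = 0.0427) and had -0.11 ± 0.09 in males (adjusted p = 0.438).

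Correlations between the 9 genes from library to library within groups ran in both directions. Against Krt19, Pearson's r of the deviations from group means over 18 libraries ran between -0.43 for Krt7 and 0.49 for Sox9, and Spearman's rho between -0.46 for Krt7 and 0.46 for Spp1. The 8 comparisons had adjusted permutation p-values of 0.224 to 0.992 for r and 0.284 to 0.964 for rho. With 18 libraries this does not show that the genes vary apart. Without the 2 libraries farthest from the median of Krt19, male S64F/+ library 1 and female WT library 3, r for Sox9 was 0.13. Among all 36 pairs of the 9 genes, r lay between -0.77, for Cftr and Tff2, and 0.62, for Muc1 and Tff2. The high Cftr and low Tff2 values of the pair of libraries that hold intestinal genes enter the first of these.

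The 3 genes most alike each member in the same deviations are given as a description of 18 libraries, all of whole islets. They were Lhx6 (r = 0.94), Anxa3 (r = 0.91) and Srpx2 (r = 0.90) for Krt19, and Chst12 (r = 0.86), Rab25 (r = 0.86) and Gnptg (r = 0.85) for Krt7. For Sox9 they were Zfp872 (r = 0.87), Tpm3 (r = 0.86) and Pnn (r = 0.85), and for Cftr they were Gda (r = 0.91), Xdh (r = 0.91) and Fcgbp (r = 0.90). Fcgbp was at 72.8 CPM in male S64F/+ library 3 and 150 CPM in male WT library 2, against at most 19.9 CPM in the others. For Spp1 they were Acat2 (r = 0.87), Capn6 (r = 0.86) and Scara3 (r = 0.83), and for Ambp they were Tmem158 (r = 0.82), Phospho2 (r = 0.78) and Fah (r = 0.78). For Muc1 they were Habp2 (r = 0.87), P2rx1 (r = 0.87) and Slc22a15 (r = 0.86), and for Muc6, read in few libraries, Dcdc5 (r = 0.72), Jhy (r = 0.68) and Pced1b (r = 0.64).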

How the data were processed

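The authors deposited raw counts per gene and library on GRCm38, and FPKM values made from them. Tools listed, without versions or roles, in the submitters' processing notes are DESeq2, featureCounts, STAR, MultiQC and FastQC. The strand setting of the counting is not given in the sources used here, so reads of Krt7 and Cftr cannot be told apart from those of genes on the opposite strand. Extraction kept RNA with an integrity number above 8.0, and reads were 150 nucleotides, per the labels' protocols.

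The 99 spike-ins, all at 0, were left out of 53900 features. The main test was the quasi-likelihood test of edgeR 4.0.16 in R 4.3.3 on the counts (filterByExpr by group, minimum count 10, minimum total 15, TMM scaling, robust quasi-likelihood fit). The fit had 1 coefficient per group over all 18 libraries. P-values are two-sided, adjusted by Benjamini-Hochberg within each of 5 contrasts, with a threshold of 0.05. The SE is the log2 fold change over the square root of F. Alternatives used DESeq2 1.42.0, limma 3.58.1 (voom), other scalings and filters, fewer libraries and a replicate block. FPKM served only to order genes by level. Correlations used 100000 permutations of libraries within groups, and intervals cover 95%. The biological coefficient of variation was 24.4%.

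Same-numbered female S64F/+ and WT libraries deviated together (r 0.11 to 0.418), so they met the criterion of 0.1 for pairs, from the data and not the labels. Differently numbered female libraries ran from -0.389 to 0.494, the highest being S64F/+ library 5 with WT library 4. The criterion thus does not establish pairs by number, and the main test used none. Same-numbered male libraries did not meet it (r -0.249 to 0.189). Chi-square per degree of freedom between replicates was at least 21.7, so none agreed within counting noise. The result of 1 defining duct marker is not reported here, although its list's counts include it. The 9 genes and all gene lists were chosen with earlier results of these data known. Genes named were the 9, up to 2 called with the smallest p in each direction per list and genotype contrast, defining markers as levels, and the 3 genes nearest each member among those averaging at least 1 CPM. Gene positions are from GENCODE M21.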

Additional observations from a re-analysis of the deposited data

Results flagged for a closer look

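Of 36 groups of 4 or 5 libraries tested for 1 value far from the rest, 5 held one. Chance flags about 1 in 20 such groups, but a group with reads in 1 library alone is always flagged, as the 3 groups of Muc6 were. Cftr in male WT library 2 was 3.58 CPM, in a library that holds intestinal genes. Tff2 in female S64F/+ library 3 was 116 CPM, and the same library had the highest acinar sum of its group. Muc6 was flagged in groups where all other libraries were at 0, with 0.0192 CPM in female S64F/+ library 4, 0.166 CPM in male WT library 3 and 0.162 CPM in female WT library 1.

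The male and female genotype effects differed by the interaction test for Spp1, by 1.30 on the log2 scale (adjusted p = 0.0182). For Muc6 the fitted difference was 9.50, but that gene entered the test through male S64F/+ islets alone, and without female WT library 1 the adjusted p was 0.982.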

How the results depend on the processing

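Of the tests of the 9 genes under alternatives, 1116 kept their side of the threshold, 39 newly passed and 35 no longer passed. No test called in the main fit or in the alternative changed sign. Uncalled ones could, as for Cftr and sex in WT (0.96, and -0.51 without both libraries that hold intestinal genes). The cause of these changes was not tested. Main counts of genes called were 5071 (27.6% of those tested) for the male genotype effect and 3884 (21.2%) for the female. They were 821 (4.47%) for the interaction, 2962 (16.1%) for sex in S64F/+ and 434 (2.36%) for sex in WT. Of the 8 genes other than Muc6, 6, 3, 1, 3 and 0 were called in these contrasts. With Muc6 they were 7, 3, 2, 4 and 0 of the 9. The counts of the 9 that follow include Muc6, whose calls are not read as support. Library-size scaling gave 4 of the 9 in the interaction and 112 genes for sex in WT. Without a filter 481 genes and 1 of the 9 were called in the interaction, 1969 for sex in S64F/+ and 252 for sex in WT. A filter of 1 CPM in 4 libraries gave 1 of the 9 in the interaction, as did limma-voom. DESeq2 gave 1912 genes in the interaction, and 1067 genes and 1 of the 9 for sex in WT. Fits of only the groups compared gave 2587 for the female effect and 226 for sex in WT. The replicate block gave 1 of the 9 in the interaction and 2 for sex in S64F/+, and called Krt7 in males (adjusted p = 0.0311). It lost the calls of Krt19 and Sox9 for sex in S64F/+ and of Muc6 in the interaction, and beside these 4 changed no call of the 9. Leaving out both libraries that hold intestinal genes, an alternative chosen after seeing the data, gave 472 genes in the interaction and 1557 for sex in S64F/+.

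Leaving out 1 library at a time gave 3956 to 5545 genes for the male effect, 2935 to 4988 for the female, 253 (without male WT library 4) to 2152 (without female S64F/+ library 1) for the interaction, 1651 (without male S64F/+ library 3) to 4298 for sex in S64F/+ and 71 (without male WT library 4) to 643 for sex in WT. Of the 9, Muc6 included, it gave 6 to 8, 3 to 4, 1 to 3, 2 to 5 and 0 to 1. Low counts limit Muc6 in females, with 1 and 18 reads in all.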
